A study of Mus musculus with 6 samples.

Results

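The regulators of G protein signalling described here are 10 genes, Rgs1, Rgs2, Rgs3, Rgs4, Rgs5, Rgs6, Rgs10, Rgs14, Rgs16 and Rgs18. They are 10 of the 36163 gene names that the array design lists for probes other than controls. Each of the 15 probes whose name is exactly that of a member is reported, out of 55681 probes in all. The family was chosen by its name from an earlier look at these same arrays, with the HFD and ND values known, so the differences between the diets are given as a description, with no p-value printed for a single member. Counts of member probes past a limit stand beside the share of all probes.

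Male C57BL/6 mice received a HFD with 60% of its kcal from fat, or a standard chow (ND), for 4 months from an age of 4 weeks. The labels number 3 hearts of each diet as replicates, each measured on 1 Agilent array read in 1 colour (Cy3), and do not say more of their separate origin, so p-values measure the spread between these hearts. The groups share strain and sex, and the labels name no transgene. The samples are labelled as heart tissue with no part named, and such tissue holds muscle, vessel, stromal and blood cells. A level is the log2 of a probe's background-subtracted intensity relative to the 75th percentile of its array, so that a level of 0 is the 75th percentile. Levels of different probes are not compared with each other, since each probe binds its target with its own strength.

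The 6 arrays shared 1 slide, where row 1 held HFD 1 and HFD 2 while HFD 3 and all ND hearts were on row 2. The share of probes well above background ran from 49.2% to 52.9% across arrays, and no spot was saturated. In HFD 2 the spike-in slope of the extraction software was 0.896, against 0.921 to 0.958 elsewhere. All 9 muscle markers tested, such as Myh6 and Tnnt2, were well above background in every heart, with a mean level of 8.23 to 8.50, and the farthest between the diets was Mybpc3 at -0.21 (adjusted p = 0.596 in limma). The atrial list (Myl4, Myl7, Nppa and Sln tested) ranged from a mean level of 4.73 to 7.54 in the ND hearts and from 1.23 to 7.89 in the HFD hearts, with HFD 2 the lowest and HFD 1 the highest. Sln was the farthest of these 4 genes at -1.23 (adjusted p = 0.894).

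Receptors that couple to heterotrimeric G proteins, among them the adrenergic, muscarinic, angiotensin and endothelin receptors of heart and vessels, act by loading the G protein alpha subunit with GTP. An RGS protein binds the loaded alpha subunit through its RGS domain and speeds the hydrolysis of GTP, which ends the signal. Rgs1, Rgs2, Rgs3, Rgs4, Rgs5, Rgs16 and Rgs18 belong to the R4 subfamily, most of whose members are little more than the RGS domain. Rgs6 is of the R7 subfamily, whose members work bound to the beta subunit Gnb5, and Rgs10 and Rgs14 are of the R12 subfamily.

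The array reads these genes through 60-base probes, and for 3 members, Rgs2 and Rgs3 of the R4 and Rgs6 of the R7 subfamily, a probe lies at the same place, near the end of the sequence that codes for the RGS domain. These 3 probes were picked because their translation holds a conserved motif of that domain, and they were aligned on it without gaps. Part of the shared bases and of the identities below was therefore fixed by this choice. They are shown for how far the probes of different members differ. Positions are on mm9, as the files give them. Capitals mark the 22 of 55 aligned bases that all 3 share.
Rgs2, probe A_55_P2109857, chr1:145848830-145848889, minus strand: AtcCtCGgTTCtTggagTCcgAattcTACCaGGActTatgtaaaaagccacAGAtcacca
Rgs3, probe A_55_P2027107, chr4:62363208-62363267, plus strand: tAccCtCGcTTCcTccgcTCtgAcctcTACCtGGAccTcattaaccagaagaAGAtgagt
Rgs6, probe A_55_P2161140, chr12:84234671-84234730, plus strand: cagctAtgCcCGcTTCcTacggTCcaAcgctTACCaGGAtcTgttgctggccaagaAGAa
Over the 55 aligned bases the Rgs2 and Rgs3 probes were identical at 34 (61.8%), the Rgs3 and Rgs6 probes at 33 (60.0%), and the Rgs2 and Rgs6 probes at 27 (49.1%). None of these 3 probes separated the diets, as the values below show for each gene.

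Of the 15 probes, 14 were well above background on all 6 arrays, and the probe of Rgs1 was so on the 3 HFD arrays alone. All 15 entered the comparison, the Rgs1 probe only through the group in which it was high. The HFD values lay apart from the ND values for 3 probes, those of Rgs1 (higher in HFD), Rgs18 (lower) and 1 of the 3 Rgs3 probes (lower), and for 12 probes the diets overlapped. Among all 27582 probes tested, 18.9% did not overlap between the diets, 11.7% had an unadjusted p below 0.05, and 0.0145% (4 probes) passed the Benjamini-Hochberg adjustment of limma. The same 3 member probes were at an unadjusted p below 0.05 and 0 of the 15 passed the adjustment. Since the members were picked with this comparison known, nothing is read from these counts. In RNA from heart tissue, fewer cells of a type and less RNA per cell cannot be told apart.

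**Figure D1:**
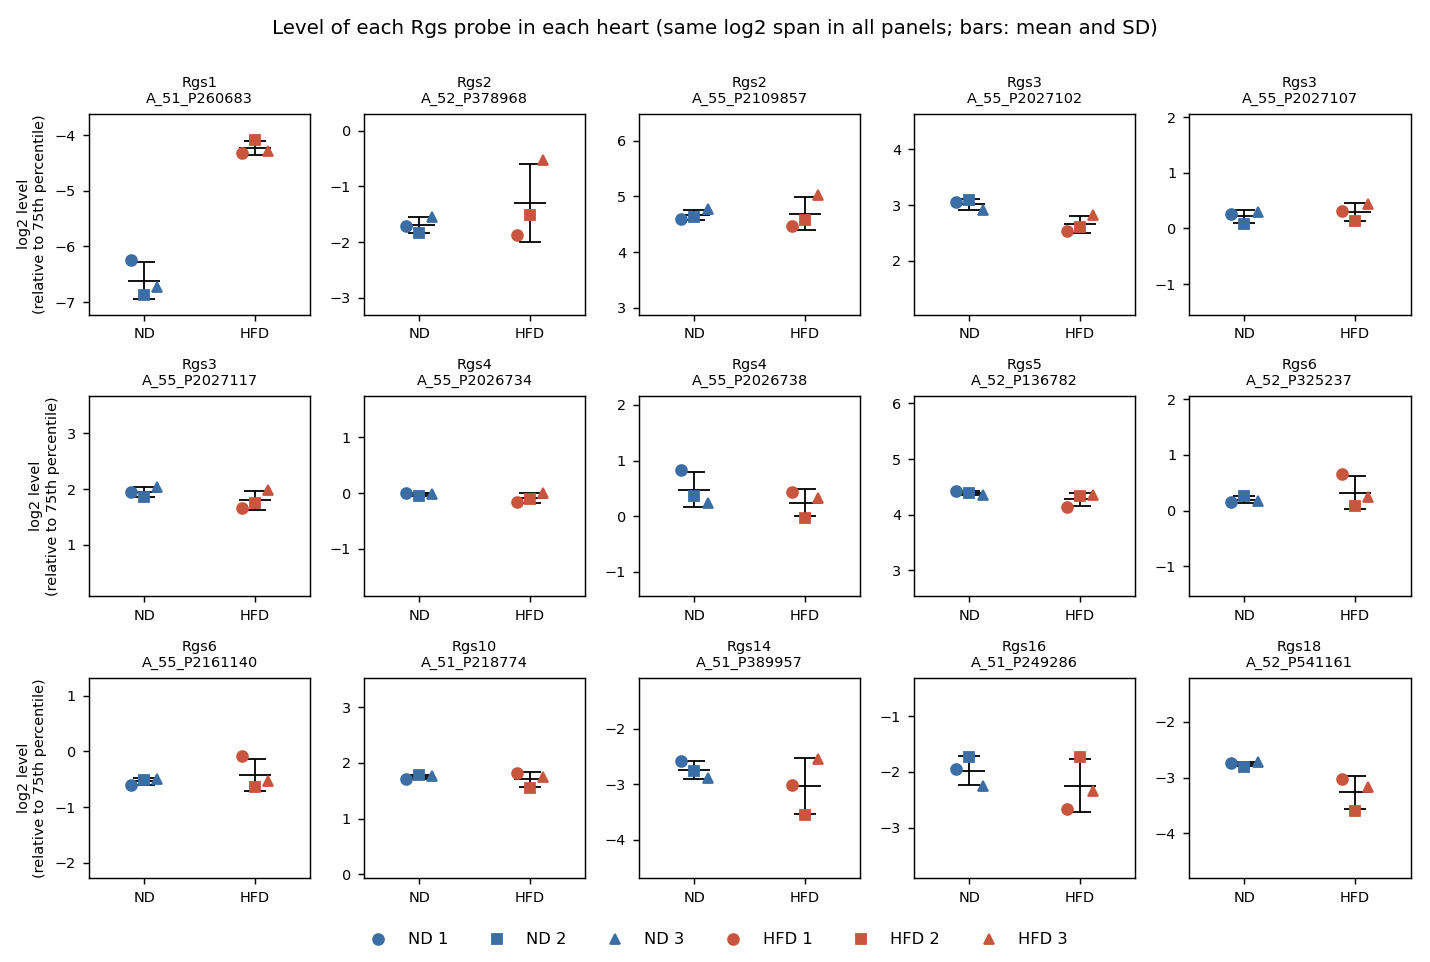
Level of each of the 15 probes in each heart (vertical axis, log2 relative to the 75th percentile of the array, every panel spanning the same number of log2 units), with ND in blue, HFD in red, marker shapes for the heart number, and black bars for the mean and SD of 3 hearts. The Rgs1 panel shows the diets 2.38 log2 units apart, with its ND values below the background limit, while most other panels show overlapping diets.

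Rgs1 restrains the response of lymphocytes to chemokines and is best known from B cells. Its probe (A_51_P260683, RefSeq NM_015811) lies on mm9 at chr1:146091962-146092021 on the minus strand, and its first 30 of 60 bases are shown because it is the member probe that was well above background in only 1 of the diets.
Rgs1, first part of probe A_51_P260683: cccttggataaccagtccaaaagtatatag
The background-subtracted intensity of Rgs1 was 6.43, 4.09 and 4.50 in the ND hearts and 25.6, 26.5 and 27.8 in the HFD hearts, here and below in the order of the heart numbers. None of the ND spots was well above background and all 3 HFD spots were, so the ND values are only a bound. On the log2 scale these are levels of -6.24, -6.88 and -6.73 in ND against -4.32, -4.09 and -4.28 in HFD, with means of -6.61 ± 0.34 and -4.23 ± 0.12 (SD, n = 3). The measured difference of the levels was 2.38 (SE 0.18), which rests on these ND values. Set against the lowest level that was well above background on the ND arrays, Rgs1 was 1.30-fold higher in the HFD hearts. This value takes the higher of that lowest level and the probe's own level on each ND array. It is not a strict bound. On ND 3 the lowest level was -4.50, yet a probe of Rgs8 at -4.30 was not well above background there.

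Before background subtraction the spot of Rgs1 was also dimmer in ND. Its mean brightness was 50.6, 48.3 and 49.9 in the ND hearts and 71.8, 75.6 and 73.6 in the HFD hearts, with a local background of 18 to 20 on all 6 arrays. These are readings of the same 6 spots that gave the intensities above, so they are not a second measurement. The brightness values did not overlap between the diets. More than the local background was taken off: ND 1 had a brightness of 50.6, a local background of 19 and an intensity of 6.43. A spot brighter than its local background is thus not always well above background. With the normexp background correction, which adds an offset of 50 before the log, the difference of Rgs1 was 0.36, so its size on the log2 scale depends on how the background is taken off. Within slide row 2, where HFD 3 can be set against the 3 ND hearts, the difference was 2.33.

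**Figure D2:**
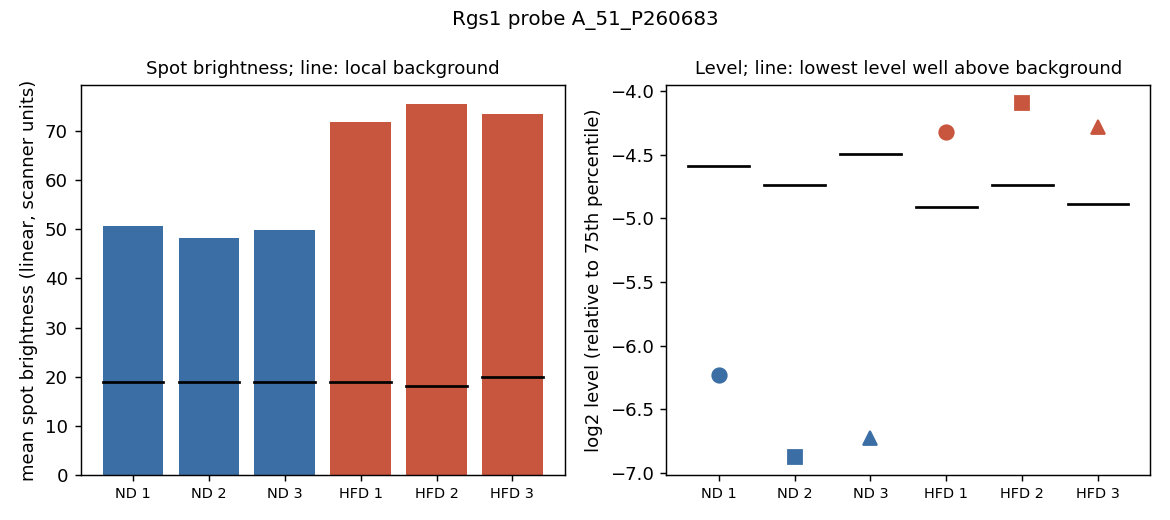
Left, mean brightness of the Rgs1 spot on each array (bars, linear scanner units, axis from 0) with its local background as a black line; right, its log2 level with, as a black line, the lowest level that was well above background on that array. On the right, all 3 HFD levels (-4.32 to -4.09) lie above the line and all 3 ND levels (-6.88 to -6.24) below it. The line on the left is not the limit for well above background.

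Early response and immune cell genes were averaged by list in the same hearts. The 13 early response genes tested (Atf3, Dusp1, Egr1, Fos, Ier2, Junb, Klf4, Nr4a1 and Nr4a2 among them) were all higher in HFD, by a median of 0.91 on the log2 scale, 9 of them at an unadjusted p below 0.05, and none passed the adjustment of limma (adjusted p = 0.121 for Nr4a2 and 0.122 for Fos). The mean level of that list was 0.46, 0.64 and -0.05 in ND and 1.75, 1.76 and 0.96 in HFD, so it did not overlap between the diets, as Rgs1 did not. Of the lymphocyte list 5 of 8 genes were tested and 2 were higher, and Cd79b, of the B cell receptor, was at an unadjusted p below 0.05 with a difference of -0.34 (adjusted p = 0.424). Its mean level was -2.58 to -2.48 in ND and -2.61 to -2.14 in HFD, which overlapped, and Ms4a1, the gene of CD20 of B cells, was well above background on no array. The 7 macrophage genes had mean levels of 1.51 to 1.65 in ND and 1.29 to 1.59 in HFD, and the farthest of them was Lyz2 at -0.35 (adjusted p = 0.451). The part of these genes in the Rgs1 difference was not tested.

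**Figure D3:**
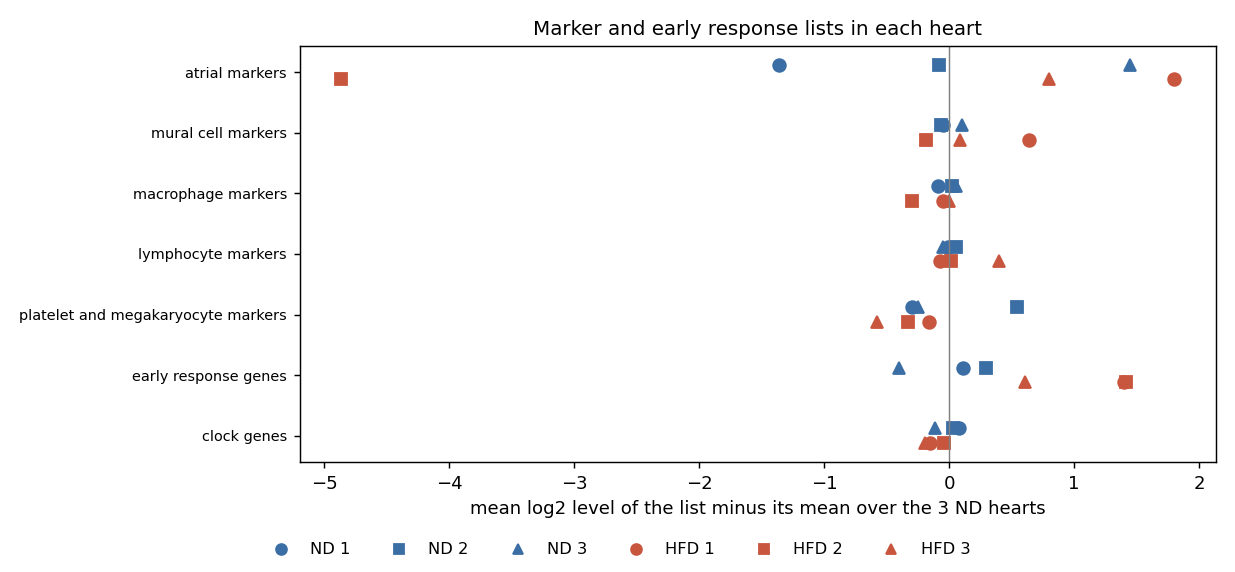
Mean log2 level of each gene list in each heart (horizontal axis), relative to the mean of the list over the 3 ND hearts, with ND in blue, HFD in red and marker shapes for the heart number. The early response genes lie apart between the diets and the atrial list differs widely among hearts of both diets, lowest in HFD 2.

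Rgs18 acts in platelets and megakaryocytes. Its probe (A_52_P541161, NM_022881, chr1:146600137-146600196, minus strand) read -2.74, -2.80 and -2.72 in the ND hearts against -3.02, -3.60 and -3.17 in the HFD hearts. The ND hearts were close to each other, every HFD heart was below them, and HFD 2 was the lowest. The means were -2.76 ± 0.04 and -3.26 ± 0.30, a difference of -0.51 (SE 0.15), or 70.3% of ND. Its spots were well above background on all 6 arrays, and with the normexp correction the difference was -0.23. Within slide row 2, where HFD 3 is the lone HFD heart, the difference was -0.41. Of 7 platelet genes 4 were tested and all 4 were lower in HFD, with a median difference of -0.42, 0 of them at an unadjusted p below 0.05 in limma (Gp9 was the farthest at -0.56, adjusted p = 0.610). The mean level of these genes was -0.91 to -0.07 in ND and -1.19 to -0.77 in HFD, which overlapped, and Gp5 was well above background on no array. Their part in the Rgs18 values was not tested.

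Rgs3 is the R4 member with long forms that carry further domains beside the RGS domain. It had 3 probes, and they did not agree. The probe farthest along the transcript (A_55_P2027102, NM_134257, chr4:62363993-62364052, plus strand) read 3.06, 3.08 and 2.90 in ND, against 2.54, 2.61 and 2.82 in the HFD hearts. All 3 HFD hearts were lower, at means of 3.02 ± 0.10 and 2.65 ± 0.15, a difference of -0.36 (SE 0.10), or 77.7% of ND. HFD 3 was the HFD heart nearest to the ND hearts, and within slide row 2 the difference was -0.20.

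The probe of the same Rgs3 transcript that lies 785 bases upstream, whose sequence is printed above, read 0.27, 0.09 and 0.29 in ND and 0.31, 0.13 and 0.44 in HFD. The diets overlapped there, with a difference of 0.08 (SE 0.11). The probe designed for transcript NM_019492 (A_55_P2027117, chr4:62320777-62320836) read 1.94, 1.86 and 2.03 in ND and 1.67, 1.74 and 1.99 in HFD, a difference of -0.14 (SE 0.11), and overlapped too. The lower values of Rgs3 in HFD were therefore seen with 1 of 2 probes of the same transcript. Why the probes differ was not tested.

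Rgs2 prefers the Gq class of alpha subunits, which carry the signals of angiotensin II and endothelin, and is an inducible gene of heart and vessel muscle. Its RGS domain probe A_55_P2109857, printed above, read 4.59, 4.63 and 4.77 in ND and 4.47, 4.58 and 5.03 in HFD. The probe 1603 bases further along (A_52_P378968, chr1:145847227-145847286) read -1.71, -1.84 and -1.55 in ND and -1.88, -1.50 and -0.52 in HFD. On both probes HFD 1 was the lowest heart and HFD 3 the highest, so the HFD hearts spanned the ND hearts. The differences between the diets were 0.03 (SE 0.16) and 0.40 (SE 0.34), with an SD of 0.30 and 0.70 among HFD hearts against 0.10 and 0.14 among ND hearts. Within slide row 2, where HFD 3 is the lone HFD heart, they were 0.36 and 1.18, values that rest on that heart. Over the 5 other hearts they were -0.14 and 0.01, and without HFD 1 they were 0.14 and 0.69. The early response genes had their lowest HFD mean level in HFD 3, and their part in the Rgs2 values was not tested.

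Rgs4 and Rgs5 lie side by side on chromosome 1, with 48.6 kb between their probes. Rgs5 is a marker of pericytes and vessel muscle. Its probe (A_52_P136782, NM_009063, chr1:171623021-171623080, plus strand) read 4.43, 4.39 and 4.35 in ND and 4.14, 4.33 and 4.35 in HFD, with HFD 1 the lowest. The means were 4.39 ± 0.04 and 4.28 ± 0.11, a difference of -0.12 (SE 0.08), or 92.3% of ND, and the diets overlapped. HFD 1 was also the heart with the highest mean level of the 10 mural cell markers, 3.34 against 2.52 to 2.81 in the other 5 hearts. The markers differed in this. Acta2, Tagln, Cnn1, Myh11 and Cspg4 were highest in HFD 1, while Pdgfrb (1.98), Kcnj8 (1.01) and Notch3 (2.52) were lowest there, as Rgs5 was. Abcc9 and Vtn were neither. Of the 10 markers 7 were higher in HFD, with a median difference of 0.09. None was at an unadjusted p below 0.05 in limma (Acta2 was the farthest at 0.72, SE 0.32, adjusted p = 0.467). The part of mural cells in the Rgs5 values was not tested.

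Rgs4 damps Gi and Gq signals in brain and in the pacemaker of the heart. Its probe A_55_P2026734 (NM_009062, chr1:171671609-171671668, minus strand) read 0.01, -0.06 and -0.02 in ND and -0.16, -0.11 and 0.01 in HFD. The other, A_55_P2026738 (chr1:171672488-171672547), read 0.83, 0.37 and 0.23 in ND and 0.44, -0.03 and 0.32 in HFD. The differences were -0.07 (SE 0.07) and -0.23 (SE 0.19), and the diets overlapped on both probes. The latter was -0.06 without ND 1, -0.10 without HFD 2 and -0.36 without ND 3.

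Rgs16 is an inducible R4 member known from liver and lymphocytes. Its probe (A_51_P249286, NM_011267, chr1:155592244-155592303, plus strand) read -1.94, -1.73 and -2.25 in ND and -2.67, -1.73 and -2.34 in HFD. HFD 1 was the lowest heart and HFD 2 stood level with the highest ND heart, both at -1.73. The difference was -0.27 (SE 0.26), and the diets overlapped. With 1 heart left out it ran from -0.06 (without HFD 1) to -0.53 (without HFD 2), being -0.15 without ND 2 and -0.41 without ND 3, so its size rests on single hearts.

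Rgs6 shortens the muscarinic signal through the potassium channel of Kcnj3 and Kcnj5 in atria and pacemaker. Its probes A_52_P325237 (NM_015812, chr12:84259211-84259270, plus strand) and A_55_P2161140, printed above, lie 364 bases apart in the transcript. The first read 0.15, 0.27 and 0.17 in ND and 0.66, 0.08 and 0.24 in HFD. The other read -0.61, -0.52 and -0.49 in ND and -0.09, -0.64 and -0.54 in HFD. On both probes HFD 1 was the highest heart and HFD 2 the lowest, and the differences between the diets were 0.13 (SE 0.16) and 0.12 (SE 0.15). The atrial list stood at a mean level of 4.73, 6.01 and 7.54 in the ND hearts and 7.89, 1.23 and 6.89 in the HFD hearts. Its highest and lowest hearts were thus those of Rgs6, but the ND hearts, which spanned a wide range of the atrial list, differed little in Rgs6. The part of atrial tissue in the Rgs6 values was not tested.

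Rgs10, a small member expressed in macrophages and microglia, and Rgs14, a scaffold with a Ras-binding region, complete the list. The Rgs10 probe (A_51_P218774, NM_026418, chr7:135517256-135517315, minus strand) read 1.71, 1.78 and 1.76 in ND and 1.81, 1.55 and 1.75 in HFD, a difference of -0.05 (SE 0.09). The Rgs14 probe (A_51_P389957, NM_016758, chr13:55485762-55485821, plus strand) read -2.58, -2.76 and -2.89 in ND and -3.01, -3.55 and -2.54 in HFD, a difference of -0.29 (SE 0.26). HFD 2 was the lowest heart for both genes, as it was for Rgs18. It also had the lowest mean level of the macrophage (1.29), fibroblast (3.53), mural (2.52) and atrial (1.23) lists. It was not the lowest for the endothelial, lymphocyte, platelet, erythroid or muscle lists. The part of these cells in the Rgs10 and Rgs14 values was not tested. For Rgs14, HFD 3 was the highest heart and the sign turned within slide row 2, where the difference was 0.20. Over all rows it was -0.03 without HFD 2 and -0.54 without HFD 3.

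**Figure D4:**
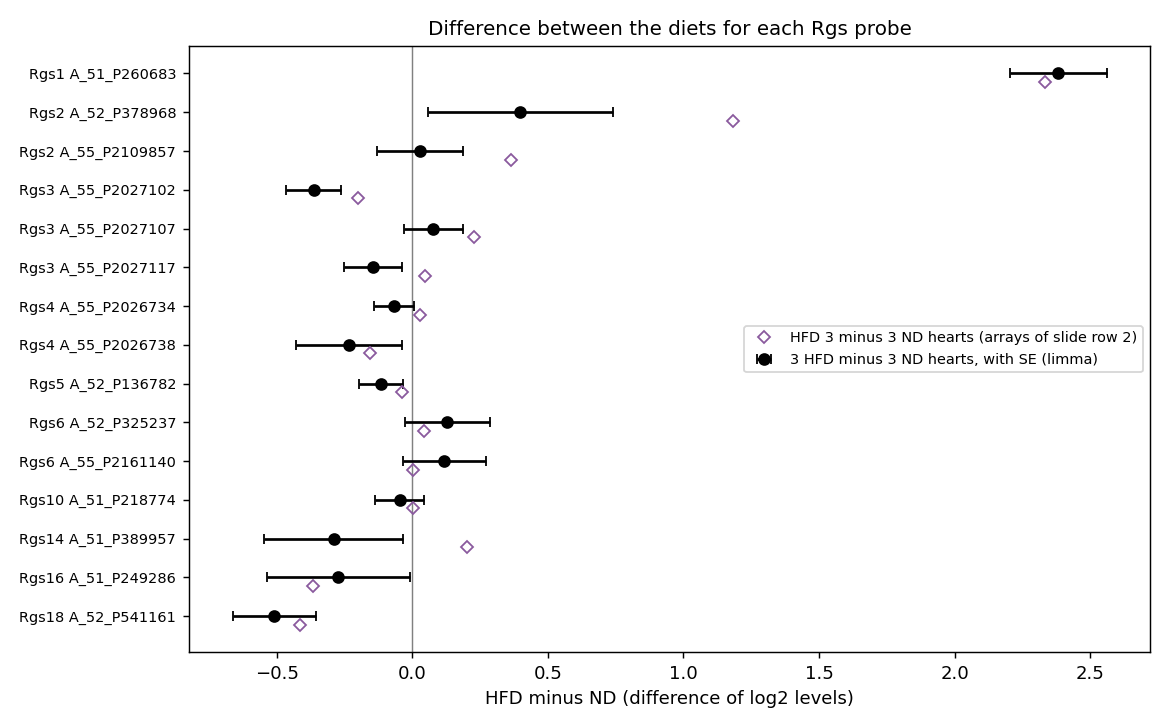
Difference between the diets for each probe (horizontal axis, HFD minus ND of the log2 levels), with black points and bars for the 3 HFD against the 3 ND hearts with the SE of limma, and open diamonds for HFD 3 against the ND hearts within slide row 2. Rgs1 stands at 2.38 and 2.33, and the other 14 probes lie between -0.51 and 0.40 over all hearts, with Rgs2 probe A_52_P378968 at 1.18 within row 2.

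Over the 15 probes, 6 were higher and 9 lower in HFD, 9 differed by less than 0.25, and the median difference was -0.07. Over all 27582 probes tested the median difference was -0.00511 and 48.8% were higher. The median size of the difference, whatever its sign, was 0.144 for the 15 probes and 0.113 for all probes.

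Rgs1 and Rgs18 lie near each other and differed in direction. In the RefSeq gene order of GRCm38.p6, Rgs2, Rgs13, Rgs1, Rgs21 and Rgs18 are consecutive protein-coding genes on chromosome 1. On mm9 the probes of Rgs2 and Rgs1 are 243 kb apart and those of Rgs1 and Rgs18 508 kb apart. Rgs1 was higher in all 3 HFD hearts, Rgs18 lower in all 3, and Rgs2 overlapped. Of the genes between, Rgs13 was well above background on no array, and Rgs21, on 2 of 3 ND arrays and all 3 HFD arrays, differed by 0.24 (SE 0.22, adjusted p = 0.720 in limma) with overlap.

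Of the 19 probes of the 11 RGS genes outside the list 11 were tested, from 7 genes. None of these 11 lay apart between the diets, and 0 were at an unadjusted p below 0.05, where limma put 11.7% of all probes. By the methods' t-test, run on the brightest tested probe of each gene, 0 of the 7 genes were. Rgs8, Rgs9, Rgs13 and Rgs22 could not be tested for low signal. The differences of the 7 genes ran from -0.05 (Rgs12) to 0.43 (Rgs7, SE 0.29, adjusted p = 0.621), with a median of -0.00518.

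The pathway around these genes was described by 6 lists, from RGS partners and alpha subunits to receptors, with 1 probe for each of 72 genes. Of them 37 were higher and 35 lower, with a median difference of 0.00433. None passed the adjustment, 12 (16.7%) were at an unadjusted p below 0.05, 5 higher and 7 lower, and 15 (20.8%) did not overlap, beside 11.7% and 18.9% of all probes. For the 11 alpha subunits tested, the class that RGS proteins act on, the differences ran from -0.42 to 0.30, and Gna12 was at 0.30 (SE 0.07, adjusted p = 0.244). Gnb5, the partner of Rgs6, was not at an unadjusted p below 0.05.

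Among the other classes the farthest gene upwards was Grk5, a kinase that turns off activated receptors and so acts on the same signals upstream of the RGS proteins. Its level was 1.54 ± 0.07 in ND and 2.28 ± 0.03 in HFD, a difference of 0.74 (SE 0.07), without overlap and with an adjusted p of 0.0705 in limma. It passed the adjustment with the normexp correction, and also when variances were estimated robustly along an intensity trend. The farthest downwards was Gnb3, a beta subunit, at 1.29 ± 0.37 in ND and -0.31 ± 0.37 in HFD, a difference of -1.59 (SE 0.25, adjusted p = 0.141). Grk4 differed by -0.38 (SE 0.09, adjusted p = 0.254), and the adaptor Gpsm1, which holds alpha subunits in their GDP form, by -0.26 (SE 0.07, adjusted p = 0.260).

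Among the effectors of the G proteins 5 of 16 genes were at an unadjusted p below 0.05. Kcnj5, of the atrial potassium channel that Rgs6 damps, was higher by 0.43 (SE 0.10, adjusted p = 0.253), and Plcb1, a phospholipase driven by Gq, by 0.36 (SE 0.14, adjusted p = 0.398). Plcb4, of the same enzyme family, differed by -0.30 (SE 0.07, adjusted p = 0.232), and the adenylyl cyclases Adcy6 and Adcy4 differed by -0.23 and -0.20 (adjusted p = 0.365 and 0.340). Of 15 receptors tested, Adora1, the adenosine receptor that slows the heart through Gi, differed by -0.55 (SE 0.15, adjusted p = 0.293) and S1pr3 by 0.26 (SE 0.10, adjusted p = 0.397). In each of the 6 lists some tested genes were higher in HFD and others lower.

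**Figure D5:**
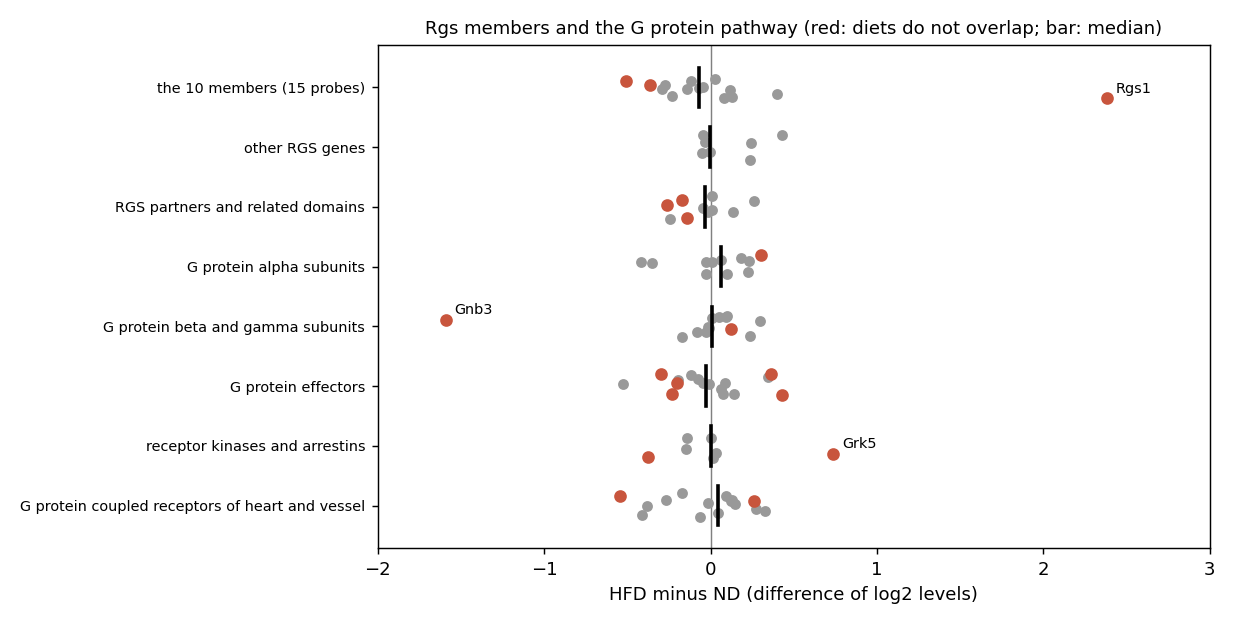
Difference between the diets (horizontal axis, HFD minus ND of the log2 levels) for the 15 member probes, the other RGS genes and the 6 pathway lists, 1 point per gene outside the members, red where the diets did not overlap, with a black bar for the median. The medians lie within 0.07 of 0, and Rgs1 (2.38), Gnb3 (-1.59) and Grk5 (0.74) lie outside the bulk of the points.

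Of the remaining cell types, endothelial markers were higher for 5 of 7 genes, and Kdr, a lower one, was at an unadjusted p below 0.05 (-0.25, adjusted p = 0.334). Of the fibroblast markers 2 of 6 were higher, and Pdgfra was at -0.30 (adjusted p = 0.345). All 6 erythroid genes tested were lower without overlap, with a median difference of -0.59 and with Ahsp the farthest (-1.34, adjusted p = 0.306). Slc4a1, Alas2, Hbb-b1 and Hbb-b2 were at an unadjusted p below 0.05 as well, with differences of -1.04, -0.64, -0.55 and -0.48. Of 11 clock genes 3 were higher, and Tef (-0.38), Nr1d1 (-0.43) and Dbp (-0.33) were at an unadjusted p below 0.05, with adjusted p-values of 0.254, 0.417 and 0.408. The part of these cells and of the time of sampling in the Rgs values was not tested.

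By the brightest probe of each gene, the members with the widest range over the 6 hearts, among those well above background on all arrays, were Rgs14 (1.01 on the log2 scale), Rgs16 (0.94) and Rgs18 (0.88). For each, the genes whose levels ran most like it over the 6 hearts were looked up among 25919 probes. Probes of genes whose name begins with Rgs, and probes with no name beyond their own, were left out of this search and its counts. For Rgs14 this was Fam53b (Pearson's r = 0.993), and 41 probes had an r above 0.95. For Rgs16 the closest were Ttn (0.999), Rplp0 (0.998) and Cobll1 (0.995), with 193 probes above 0.95, and for Rgs18 Plcd1 (0.999) and Rbm3 (0.994), with 100 above it. The remaining closest probes, 2 for Rgs14 and 1 for Rgs18, are named in the array design only by an interval of the genome. With 6 hearts and so many probes such values are a description, and the hearts share a slide and the scaling of each array.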

How the data were processed

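RNA of 6 hearts was measured on 6 one-colour Agilent mouse arrays. The deposited scanner intensities are linear and had been corrected for background within each array by the authors with Agilent Feature Extraction (10.7 per the labels, 10.7.1.1 in the file headers), with no normalization between arrays. The log2 table deposited by the authors followed a quantile normalization of the same arrays (median difference at most 0.00188) and served as an alternative. Control spots and 127 to 190 outlier spots per array were left out, the 75th percentile was subtracted on the log2 scale, and the diets were compared two-sided by lmFit and eBayes of limma 3.58.1, with Benjamini-Hochberg adjustment, in R 4.3.3 (data.table, version 1.17.8, jsonlite 2.0.0, statmod 1.5.0). Figures used Python 3.11.15, pandas 2.3.3 and matplotlib 3.10.9. All 11 RefSeq accessions of the members matched their symbols. The code was tested on simulated data. The fit held 27582 probes, those that all arrays of a diet showed well above background and that at least 2 arrays per diet measured. The number of arrays limits precision.

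The members and gene lists were chosen with earlier results of these data known. Named are all members, list genes at an unadjusted p below 0.05 or else the farthest of a list, with the brightest tested probe per gene, and for the 3 members of widest range the 3 most similar probes. Alternatives were quantile normalization, a percentile over probes above background on all 6 arrays, normexp with offset 50, no filter or a stricter one, the authors' table, the methods' t-test on the same values, an intensity trend with robust variances, the replicate block, slide row, outlier spots kept, averaged probes of a gene, and each heart left out. The deviations of same-numbered hearts correlated at -0.154, 0.147 and 0.190, and those of differently numbered hearts at -0.302 to 0.190. With 3 hearts per diet such values cannot settle whether the hearts were paired.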

Additional observations from a re-analysis of the deposited data

How the results depend on the processing

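Of 254 values of member probes under 17 alternatives, 245 moved by less than 1 SD between replicates and 9 by more, 7 of them with slide row as a term and those of Rgs1 and Rgs18 with normexp. Many of the 245 could not move further. Both filter changes, the t-test, the trend and the block leave a difference unchanged, and leaving out 1 heart cannot shift it by 1 such SD. The count of 245 is therefore no measure of stability. Rgs1 ranged from 0.36 to 2.57, on ND values below background. The sign turned under some alternative for Rgs2 probe A_55_P2109857, Rgs3 probe A_55_P2027117, Rgs4 probe A_55_P2026734, both Rgs6 probes, Rgs10 and Rgs14. Among these, the Rgs2 probe ran from -0.14 to 0.36 and Rgs14 from -0.54 to 0.20. The number of all probes past the adjustment (4) was 37 with normexp, 80 with the trend and robust variances, 2 with the authors' table, 2 with the methods' t-test after adjustment, 0 without a filter (3430 at an unadjusted p below 0.05), 0 with slide row (2107), and 0 to 5 with a heart left out (0 without ND 1, HFD 2 or HFD 3, where 2176, 3477 and 2904 were at an unadjusted p below 0.05). In the pathway lists 1 gene, Grk5, passed with normexp and 1, Grk5, with the trend. Of the member probes, that of Rgs1 passed with the percentile over probes above background on all 6 arrays and with the trend. It entered only through the diet in which it was high, so nothing is read from this. With a heart left out, 3 to 8 member probes did not overlap (5 without HFD 2, 8 without HFD 3) and 3 to 5 were at an unadjusted p below 0.05 (5 without HFD 3). Fewer hearts make overlap rarer by construction, with 32.6% of all probes apart without HFD 2 and 28.0% without HFD 3. For the other changes the cause was not tested.

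With the replicate number as a block, 0 probes passed the adjustment and 3001 were at an unadjusted p below 0.05, 3 of them member probes. The numbers were not treated as a pairing.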
